A study of Drosophila melanogaster with 34 samples.

Results

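The knockdown of Fibrillarin (Fib) in cultured Drosophila melanogaster cells was followed at 72 positions of ribosomal RNA, 24 of them in the small-subunit 18S rRNA, 47 in the large-subunit 28S rRNA and 1 in 5.8S rRNA. The 8 libraries were taken by their labels, LacZ_KD replicates 1 to 4 and Fib_KD replicates 1 to 4, out of 34 libraries in the series; the other 26, from fly heads, were not used. Both groups were S2R+ cells, a line of embryonic origin grown in Schneider's medium with serum. The control cells received double-stranded RNA against lacZ, a bacterial gene absent from the fly genome, and the knockdown cells received double-stranded RNA against Fib. Both groups thus carry the double-stranded RNA treatment itself. No source used here states the length of the treatment or the remaining amount of Fib, so how far the target was depleted was not analysed. The labels call the cells mesenchymal stem cells; the tables hold rRNA positions only, with no marker gene to set against that label.

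Fibrillarin is the methyltransferase of the box C/D small nucleolar ribonucleoprotein, a particle in which a small nucleolar RNA (snoRNA) pairs with the rRNA and places the enzyme at a single ribose. The partner proteins Nop56, Nop58 and the 15.5K protein hold the guide and the enzyme together. Some ribose methylations are made without a guide by stand-alone enzymes, such as yeast Spb1 at the loop of the large subunit that receives the aminoacyl end of transfer RNA. A methylated ribose protects the bond beside it from alkaline cleavage. RiboMeth-seq reads this protection as a lack of fragment ends at the position against its neighbours.

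The score and the read ends were used at each position. The methylation score is the authors' own. Its formula was not at hand, so it is read here on an assumed scale, the usual one for this assay, with 1 for full protection and values near 0 for a position cleaved like its neighbours. It can fall below 0. The read-end share is the number of 5′ and 3′ read ends at the position per 1000 reads that cover it, and it rises as protection is lost. The tables name the guides expected at each site. They list at least 1 snoRNA for 59 sites, give the guide as unknown for 11, and name a methyltransferase for 2.

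Between 28370.5 and 67512 reads covered the median site of a library. The lowest coverage of all, 391 reads, was at 18S Am[m62A]1977, and apart from this site and its neighbour no site fell under 1469 reads in any library. Replicates 1 and 2 of both groups carry neighbouring library numbers (set A), and replicates 3 and 4 carry a later run of numbers (set B). Nothing at hand states that the replicates came from separate cultures, so p-values measure the spread between these libraries, which may be technical. LacZ replicate 3 stood apart from the other controls, with a mean score of 0.892 against 0.913 to 0.915. Values without it are given for the counts, the mean score and the 4 sites where it departed most.

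After Fib knockdown the score was lower at most positions and called higher at none. Of 72 sites, 58 fell (80.6% of those tested) and 0 rose (0%; at an unadjusted p under 0.05 also 0), by limma with an adjusted p under 0.05. At 57 sites (79.2%) every Fib library lay below every LacZ library. The mean score over the sites was 0.908 ± 0.0109 in control and 0.747 ± 0.0484 in knockdown cells (SD, n = 4 each), a change of -0.161 (p = 0.0286 by a two-sided exact permutation test, which can go no lower with 4 against 4). With same-numbered libraries as pairs the exact p was 0.125, which is also the smallest possible. Sites at 0.9 or more numbered 52 to 57 in a control library and 11 to 15 in a knockdown library. The median score of a library moved by -0.145, and relative to it 25 sites were lower and 30 higher.

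**Figure D1:**
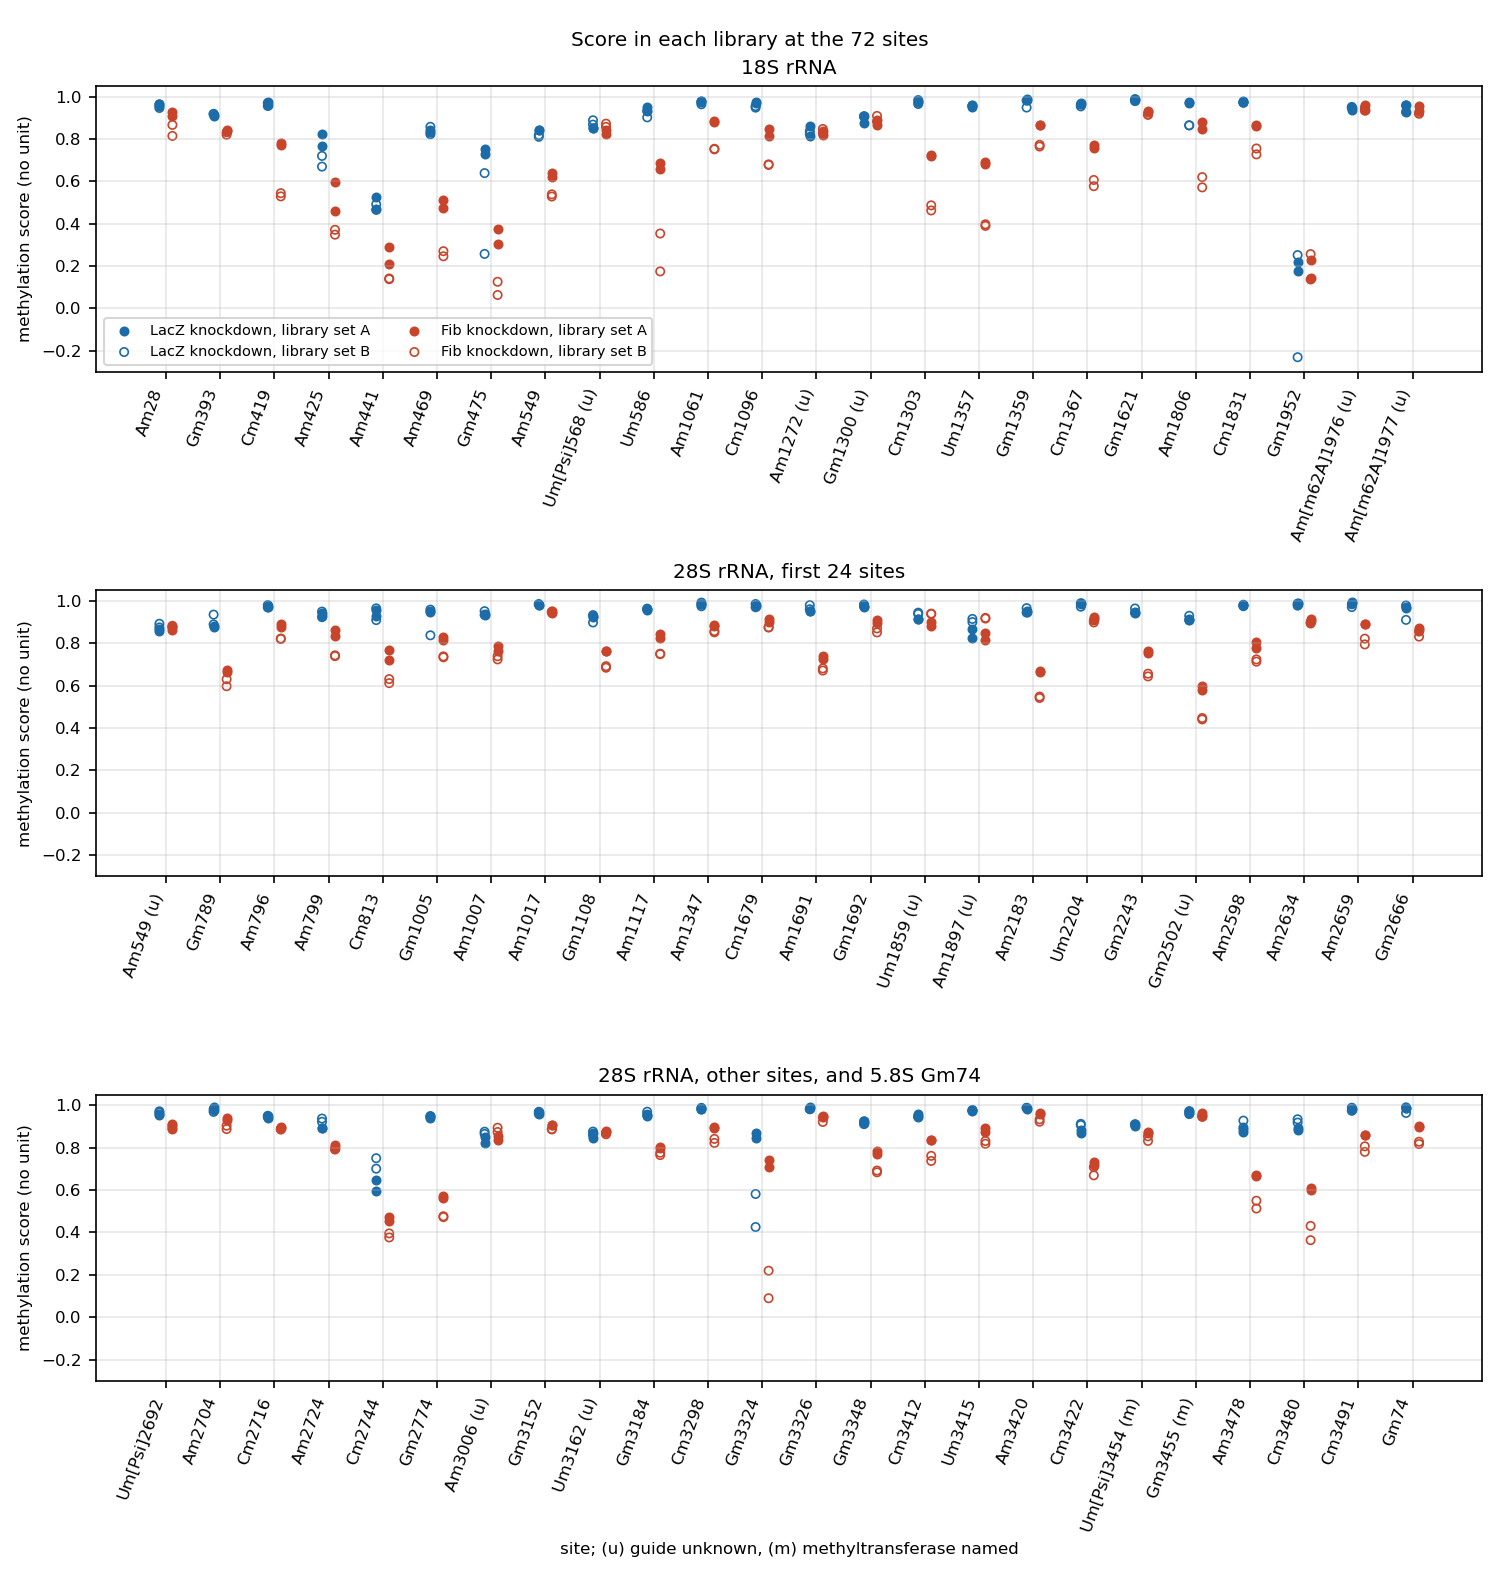
Methylation score (no unit, vertical axis) of each library at the 72 sites in order along 18S rRNA and along 28S rRNA with 5.8S Gm74 last; blue points are LacZ and red points Fib knockdown libraries, filled for library set A and open for set B. Red points lie below blue ones at 57 sites, open red points usually lowest, while 10 of the 11 sites of unknown guide, marked (u), show both colours together.

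The 10 largest falls divided between the subunits, with 6 in 18S and 4 in 28S rRNA. At 18S Am469 the LacZ scores were 0.842, 0.832, 0.822 and 0.857 and the Fib scores 0.513, 0.475, 0.246 and 0.270. The groups were far apart, and the libraries of set B were the lowest. The change was -0.462 ± 0.0627 (SE; adjusted p = 0.000318). At 18S Um586 the control scores of 0.933, 0.949, 0.932 and 0.902 became 0.657, 0.688, 0.175 and 0.354. The Fib libraries of set B were far below those of set A, and the change of -0.461 carried an SE of 0.112 (adjusted p = 0.00543). 28S Gm2774 was the opposite case, with little spread on either side. It read 0.9501, 0.942, 0.945 and 0.949 in LacZ and 0.561, 0.572, 0.477 and 0.473 in Fib libraries, a change of -0.426 ± 0.0249 (SE; adjusted p = 2.45e-05).

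18S Um1357 was uniform in controls, at 0.951 to 0.961, and read 0.682, 0.693, 0.3896 and 0.397 after knockdown. Its change was -0.416 ± 0.0769 (SE; adjusted p = 0.00143). At 28S Cm3480 the control scores were 0.883, 0.895, 0.934 and 0.919 and the knockdown scores 0.609, 0.598, 0.431 and 0.364. Here the controls of set B were slightly above those of set A while the knockdown libraries of set B were below, so the groups opened on both sides. The change was -0.407 ± 0.0566 (SE; adjusted p = 0.00035). 28S Gm2502 went from 0.909 to 0.930 in controls to 0.599, 0.580, 0.441 and 0.447, a change of -0.399 ± 0.0389 (SE; adjusted p = 8.42e-05). It is the single site of unknown guide among these 10.

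18S Gm475 is the least certain of the large falls. Its control scores were 0.731, 0.754, 0.257 and 0.639, and LacZ replicate 3 was within the range of the Fib scores of 0.306, 0.375, 0.126 and 0.0635. The groups overlapped through that library, and the change was -0.378 ± 0.124 (SE; adjusted p = 0.0216). Without LacZ replicate 1, 2 or 4 or Fib replicate 3 or 4 it was no longer called (adjusted p up to 0.0593), and without LacZ replicate 3 it was called, with a change of -0.490. The remaining 3 had no overlap. 18S Cm1303 read 0.965 to 0.983 in controls and 0.727, 0.722, 0.487 and 0.463 in Fib libraries. 28S Am2183 read 0.945 to 0.966 and then 0.664, 0.669, 0.549 and 0.542. At 18S Cm419, scores of 0.956 to 0.973 became 0.782, 0.773, 0.544 and 0.529. Their changes were -0.377, -0.348 and -0.308, in that order.

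In 18S rRNA, 17 of 24 sites fell (70.8%, against 80.6% of all sites), with a median change of -0.180 over the 24 and -0.143 over all 72. All 7 sites in the first 500 bases fell. Cm419, Am425, Am441, Am469 and Gm475 stand close together there and had changes from -0.294 to -0.462, whereas Am28 and Gm393 changed by -0.0788 and -0.0821. Am425 and Am441 had lower control scores than most sites, at 0.745 ± 0.0654 and 0.489 ± 0.0283 (SD, n = 4), and ended at 0.443 ± 0.112 and 0.195 ± 0.0716. From base 501 to 1000, Am549 fell by 0.246 beside the much larger fall at Um586. From base 1001 to 1500, the 6 guided sites all fell, by 0.156 at Am1061, 0.158 at Gm1359, 0.208 at Cm1096 and 0.286 at Cm1367 besides the falls at Cm1303 and Um1357. From base 1501 on, 2 of 6 sites were called, Gm1621 with -0.0621 and Cm1831 with -0.172.

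In 28S rRNA, 40 of 47 sites fell (85.1%), with a median change of -0.122. All 14 sites between bases 2001 and 3000 fell, with a median of -0.123. Large falls in this stretch were those of Gm2774, Gm2502, Am2183, Cm2744 (-0.248), Gm2243 (-0.245) and Am2598 (-0.224). Small ones were at Cm2716 (-0.0549), Am2704 (-0.0642), Um[Psi]2692 (-0.0650), Um2204 (-0.0737) and Am2634 (-0.0808). Am2659, Am2724 and Gm2666 lay between, at -0.135, -0.112 and -0.102. Um[Psi]2692 is named as both methylated on the ribose and isomerised to pseudouridine, a base change made by another class of snoRNA.

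Towards the 5′ end of 28S rRNA, Gm789 and Cm813 fell by 0.255 and 0.256. Am796 and Am799, which lie between them, fell by 0.122 and 0.142. From base 1001 to 2000, 9 of 11 sites fell. Their changes were -0.256 at Am1691, -0.195 at Gm1108, -0.186 at Am1007, -0.169 at Am1117, -0.143 at Gm1005, -0.115 at Am1347, -0.0953 at Gm1692, -0.0871 at Cm1679 and -0.0353 at Am1017. Am1017 had the smallest fall that was called in either subunit. Its scores were 0.982, 0.981, 0.984 and 0.985 in control and 0.954, 0.942, 0.945 and 0.9498 in knockdown cells (adjusted p = 0.0017).

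From base 3001 of 28S rRNA, 13 of 17 sites fell, with a median change of -0.122. Cm3480 and its neighbour Am3478 (-0.297) led, followed by Gm3348 (-0.188), Cm3422 (-0.186), Gm3184 (-0.171), Cm3491 (-0.156), Cm3412 (-0.155), Cm3298 (-0.122) and Um3415 (-0.122). By another of the authors' scores, Am3478 read -0.117, -0.138, 0.164 and -0.194 in LacZ libraries. The Fib libraries read -0.0508, -0.0138, -0.295 and -0.239 there, so the groups overlapped by that score. The read-end share at Am3478 rose 4.46-fold. Gm3152, Gm3326 and Am3420 changed by -0.0673, -0.0459 and -0.0414. The single 5.8S site, Gm74, read 0.990, 0.989, 0.964 and 0.991 in LacZ and 0.902, 0.898, 0.828 and 0.817 in Fib libraries. The groups did not overlap there, and the change was -0.122 ± 0.0220 (SE; adjusted p = 0.00125).

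Only 7 sites stayed at 0.9 or more in all 4 knockdown libraries, out of 49 that did so in all 4 control libraries. They were 18S Gm1621, 18S Am[m62A]1976, 18S Am[m62A]1977, 28S Am1017, 28S Gm3326, 28S Am3420 and 28S Gm3455, of which 4 are guided. Those 4 guided sites had all fallen by the test. The Am[m62A] sites had the largest read-end shares of all sites, so score and read ends disagree there. In set B, both Fib libraries were under 0.5 at 13 sites, and in set A at 4, namely 18S Am441, 18S Gm475, 18S Gm1952 and 28S Cm2744. The LacZ libraries had 1, 2, 4 and 2 sites under 0.5. Gm1952 was under 0.5 in all 4 of them, and Am441 read 0.528, 0.471, 0.465 and 0.491, so neither was brought there by the knockdown alone.

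Most sites that were not called had no listed guide. Among 59 guided sites 56 fell, and among 11 of unknown guide 1 fell, against 80.6% of all sites. The median change was -0.169 for guided sites and -0.00217 for those of unknown guide, beside -0.143 for all 72. The guides are those of the authors' annotation, for which no method was at hand. The names of 10 sites also carry a low line, and what this mark means was not analysed. Of these sites 1 is guided and the others are of unknown guide, and none was called. The site of unknown guide that fell does not carry the mark. The contrast by guide thus nearly coincides with the mark, and it goes along with a difference in control levels. Whether the lack of change follows the guide, the mark or the control level was not tested.

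At the 10 other sites of unknown guide the scores of the groups overlapped. Of these, 18S Am1272 alone carries no low line in its name. It read 0.816, 0.862, 0.837 and 0.824 in LacZ and 0.840, 0.820, 0.827 and 0.847 in Fib libraries. The difference was -0.00149, with a 95% interval from -0.0307 to 0.0277. 18S Gm1300 read 0.906, 0.876, 0.906 and 0.907 and then 0.891, 0.864, 0.909 and 0.882, an interval of -0.0419 to 0.0172. These intervals leave no room for a fall like that of 18S Cm1303, which is 3 bases from Gm1300 and has a listed guide. 18S Um[Psi]568 had control scores of 0.850, 0.850, 0.888 and 0.868 and knockdown scores of 0.825, 0.840, 0.857 and 0.872 (interval -0.0479 to 0.0173).

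18S Am[m62A]1976 and 18S Am[m62A]1977 are adjacent adenosines near the 3′ end of 18S rRNA, where enzymes of the Dim1 family add 2 methyl groups to each base rather than to the ribose. They had the lowest coverage of all sites. The first read 0.948, 0.937, 0.947 and 0.951 in LacZ and 0.937, 0.958, 0.947 and 0.934 in Fib libraries. The second read 0.959, 0.926, 0.959 and 0.927 and then 0.956, 0.930, 0.919 and 0.922. Their intervals were -0.0219 to 0.0176 and -0.0415 to 0.0189.

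Among the 28S sites of unknown guide, Am549 read 0.859, 0.869, 0.892 and 0.875 in LacZ and 0.861, 0.878, 0.883 and 0.877 in Fib libraries, a difference of 0.00082 (interval -0.0223 to 0.0239). Um3162 read 0.867, 0.848, 0.876 and 0.859 and then 0.874, 0.881, 0.864 and 0.871 (interval -0.0111 to 0.0309). Am3006 read 0.820, 0.852, 0.876 and 0.865 and then 0.856, 0.838, 0.874 and 0.894 (interval -0.0265 to 0.0513). In none of these 3 did the groups separate. Am1897 and Um1859 followed the library set in both groups. Am1897 read 0.825 and 0.865 in set A and 0.915 and 0.901 in set B of the controls, and 0.816, 0.850, 0.917 and 0.920 in the Fib libraries. Um1859 read 0.913, 0.913, 0.945 and 0.939 in control and 0.884, 0.902, 0.940 and 0.939 in knockdown cells. Set B was the higher one in each group, and the changes within the sets were -0.0121 and 0.0106 at Am1897 and -0.0198 and -0.00218 at Um1859.

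The pair with a named methyltransferase, 28S Um[Psi]3454 and 28S Gm3455, changed less than most guided sites, and Um[Psi]3454 was called. Guided 28S Gm3326, 28S Am3420 and 28S Am1017 were called with smaller falls than Um[Psi]3454, at -0.0459, -0.0414 and -0.0353. Um[Psi]3454, given in the tables as dependent on CG8939 (a gene whose RefSeq synonyms include dSpb1), read 0.901, 0.912, 0.909 and 0.911 in LacZ and 0.867, 0.875, 0.832 and 0.854 in Fib libraries. The groups did not overlap, and the change was -0.0511 ± 0.0108 (SE; adjusted p = 0.00262). Gm3455, annotated with SPB1 of yeast, read 0.973, 0.966, 0.959 and 0.973 and then 0.949, 0.962, 0.952 and 0.946. The groups overlapped, and the difference of -0.0156 did not pass (adjusted p = 0.0960, interval -0.0337 to 0.0024).

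Of the guided sites, 3 were not called. 18S Am1806 read 0.974, 0.969, 0.864 and 0.864 in LacZ and 0.879, 0.848, 0.620 and 0.571 in Fib libraries, and 28S Gm3324 read 0.869, 0.847, 0.426 and 0.582 and then 0.740, 0.711, 0.219 and 0.0896. In both, control and knockdown libraries of set B were the lower ones, and within each set the Fib libraries lay below the LacZ libraries. The pooled changes were -0.188 (adjusted p = 0.05001) and -0.241 (adjusted p = 0.259). Am1806 was called without Fib replicate 1 or 2 (adjusted p = 0.0178 and 0.0306) and not without any other library (adjusted p up to 0.124). Gm3324 changed by -0.326 without LacZ replicate 3 and by -0.124 without Fib replicate 4, and was called in neither case (adjusted p = 0.154 and 0.533). With the replicate number as a block both passed, at an adjusted p of 0.00906 and 0.0271. With the library set as a block both passed as well, at an adjusted p of 0.00143 and 0.00632. 18S Gm1952 had low scores in both groups, with 0.175, 0.221, -0.230 and 0.252 in LacZ and 0.228, 0.142, 0.256 and 0.137 in Fib libraries. Its difference of 0.0865 turned to -0.0250 without LacZ replicate 3, and neither passed (adjusted p = 0.478 and 0.564).

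Read ends gave a second view of the same positions, from counts and coverage alone and with no reference to neighbouring positions. They come from the same libraries, and the assay derives its score from fragment ends too. The measures are thus not independent, and much overlap of their calls is built in. The share of read ends was higher in knockdown cells at 60 sites (83.3% of those tested) and lower at 0 (0%). The 60 held all 58 sites called by the score, with 18S Am1806 and 28S Gm3455 in addition. At 58 sites (80.6%) every Fib library had a larger share than every LacZ library. The median of the 72 folds was 3.97. The median share of a library, a different quantity, moved by 2.24 on the log2 scale, and relative to it 30 sites were lower and 15 higher.

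**Figure D2:**
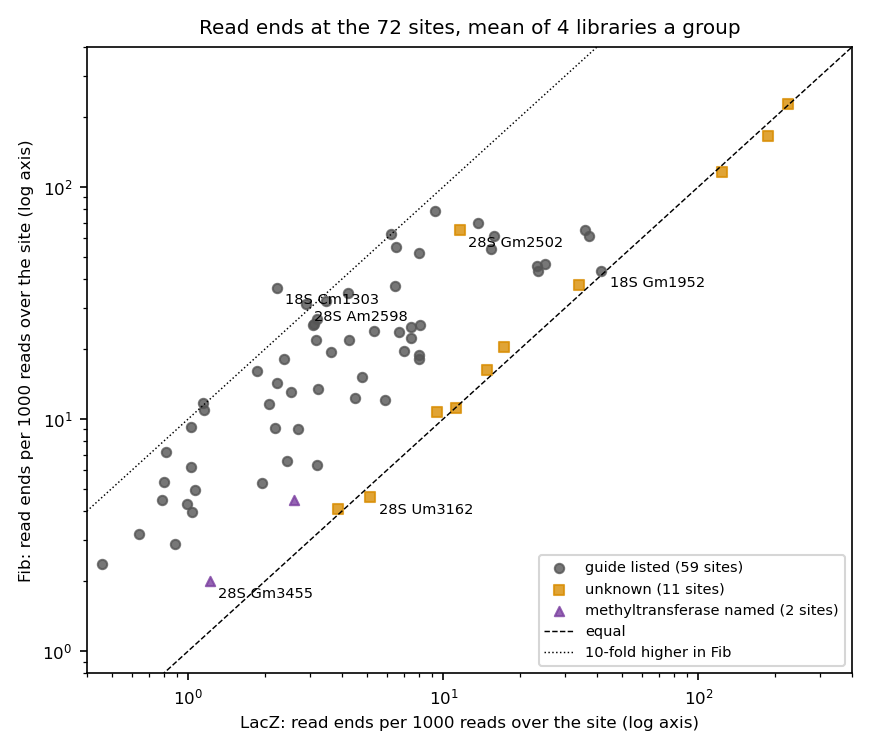
Read ends per 1000 covering reads at each site, mean of 4 LacZ libraries (horizontal, log axis) against mean of 4 Fib libraries (vertical, log axis); grey circles are sites with a listed guide, orange squares sites of unknown guide and purple triangles the sites with a named methyltransferase, with lines of equal share and of 10-fold. Guided sites lie mostly well above the line of equality, with a median fold of 4.65, and orange squares lie along it, apart from 28S Gm2502 at 5.6-fold.

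The 5 largest relative rises started from control shares between 0.380 and 7.26 ends per 1000 reads. 18S Cm1303 had 2.22, 1.94, 3.21 and 1.53 ends per 1000 reads in LacZ libraries and 23.3, 25.3, 48.2 and 50.1 in Fib libraries. This was a 15.8-fold rise (95% interval 9.62 to 26.0; adjusted p = 2.2e-06). 28S Am2598 rose 10.8-fold, from 2.31 to 4.05 to between 23.9 and 37.1 ends per 1000 reads. 28S Am2659 rose 10.6-fold from 0.380 to 2.20 ends in controls, 5.8S Gm74 rose 9.78-fold and 18S Um1357 9.72-fold. Um1357 had the highest control shares of the 5, at 5.02 to 7.26. Am2659 and Gm74 had score changes of -0.135 and -0.122, in the middle of the range.

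The order of sites therefore differed between the measures. Over the 59 guided sites, which share libraries and depth, the score change and the log2 fold of the read-end share were weakly related (Pearson's r -0.267, Spearman's rho -0.218, as a description). The 33 guided sites with a control score of at least 0.95 had a median score change of -0.122 and a median rise of 6.17-fold. The 11 guided sites under 0.9 had a median score change of -0.255 and a median rise of 2.13-fold. 28S Am1347 is an example of the first kind, with a score change of -0.115 and a 9.37-fold rise. 18S Am441 is one of the second, with -0.294 and 1.64-fold. 18S Am549, also of the second kind with a control score of 0.828, changed by -0.246 and 2.34-fold.

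At the 10 sites of unknown guide other than 28S Gm2502 the read-end fold ran from 0.886 at 18S Am[m62A]1976 to 1.15 at 28S Um1859, and none passed. At 28S Um3162 the LacZ libraries had 5.66, 5.72, 4.18 and 5.11 and the Fib libraries 4.45, 4.80, 4.82 and 4.28 ends per 1000 reads. At 28S Gm2502 the shares were 11.1, 12.2, 13.9 and 9.23 in LacZ and 54.6, 57.9, 72.8 and 74.2 in Fib libraries, a rise of 5.60-fold (95% interval 4.17 to 7.52; adjusted p = 2.1e-06). Every Fib library there was above every LacZ library.

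The pair with a named methyltransferase was called by its read ends at both positions, with small folds. 28S Um[Psi]3454 had 2.57, 2.70, 2.41 and 2.68 ends per 1000 reads in LacZ and 3.95, 3.96, 5.41 and 4.54 in Fib libraries, a fold of 1.71 (95% interval 1.32 to 2.20; adjusted p = 0.00121). 28S Gm3455 had 1.04, 1.37, 1.41 and 1.03 and then 2.29, 1.64, 1.999 and 2.06, a fold of 1.64 (95% interval 1.23 to 2.19; adjusted p = 0.00404). Every Fib library was above every LacZ library at both. The lowest folds among guided sites that fell were of like size, 1.64 at 18S Am441 and 1.82 at 28S Cm2744, both sites with control scores under 0.9. The pair itself had a mean control score of 0.938. Guided sites with control scores of 0.9 to 0.95 had folds of at least 1.98, and those at 0.95 or more at least 2.52. Both are above the folds of the pair.

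**Figure D3:**
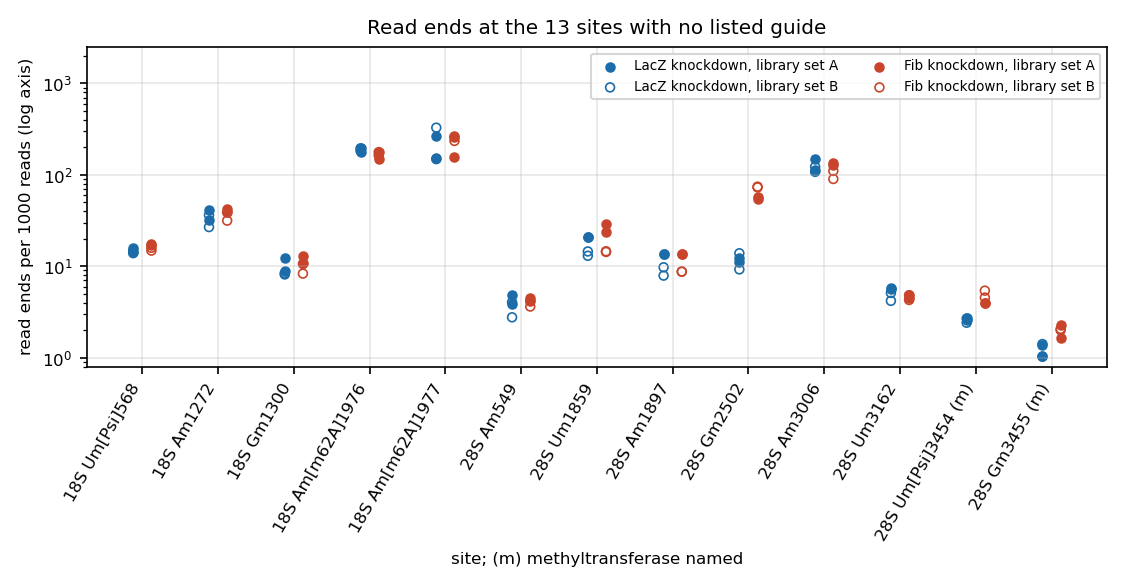
Read ends per 1000 covering reads (vertical, log axis) in each library at the 13 sites with no listed guide; blue points are LacZ and red points Fib libraries, filled for set A and open for set B. 28S Gm2502 and the pair marked (m) have all Fib points above all LacZ points, at folds of 5.60, 1.71 and 1.64.

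Each library set was also looked at alone. In set A 58 sites fell (80.6%) and in set B 60 (83.3%), with 0 rises in both (0%), by a fit that keeps the sets apart with 2 libraries per group and set. The 58 of set A were all among the 60 of set B. The additional sites of set B were 18S Am28, where the change of -0.115 passed in set B (adjusted p = 0.00102) and that of -0.0431 in set A did not (adjusted p = 0.0660), and 28S Gm3324, where -0.349 passed (adjusted p = 0.00161) and -0.132 did not (adjusted p = 0.0841). A difference between the sets was not shown at either (adjusted p = 0.0560 and 0.0747). In all, 57 sites passed over all libraries and within both sets.

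**Figure D4:**
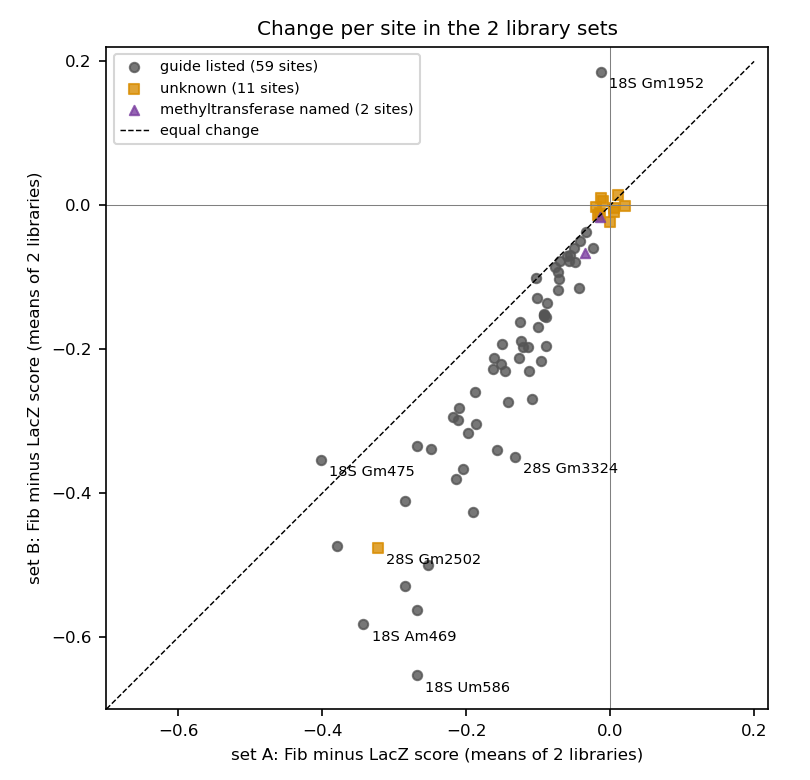
Change in score, Fib minus LacZ, in library set A (horizontal) and set B (vertical), each from means of 2 libraries a group; symbols give the annotation and the dashed line equal change. Of the 58 sites that fell, 56 lie below the dashed line, and 18S Gm475 is one of the 2 above it.

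The order of the sites was much alike in the sets, which share no library: over the 72 sites Pearson's r between the changes was 0.910 and Spearman's rho 0.963, given as a description. The size was not alike. Among the 58 sites that fell, the fall was deeper in set B at 56, and a test of the difference passed at 40 of 72 sites (55.6%), with 0 shallower in set B (0%). On the log2 odds of the score 12 sites passed, and relative to the library median 16 were deeper and 24 shallower in set B. Of the 40, 39 were guided and the other was 28S Gm2502.

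The 5 largest differences between the sets were at 18S Um586, 18S Um1357, 18S Cm1303, 28S Cm3480 and 18S Am469. At Um586 the score changed by -0.268 in set A and by -0.653 in set B, a difference of -0.384 (95% interval -0.572 to -0.197, adjusted p = 0.00748). At Um1357 the changes were -0.269 and -0.563, a difference of -0.294 (95% interval -0.320 to -0.267; adjusted p = 1.34e-05). At Cm1303 the difference was -0.246, at Cm3480 -0.244 and at Am469 -0.239. The smallest differences were at 28S Gm2666 (0.00164), 28S Gm3455 (-0.00241), 18S Gm1300 (0.00274), 28S Am3006 (0.00294) and 28S Am1017 (-0.00389). Gm2666 and Am1017 fell in both sets, and the other 3 in neither.

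Knockdown scores were lower in set B than in set A at 64 of 72 sites, and control scores were higher in set B at 34. Averaged over the sites, the controls of set A scored 0.914 and those of set B 0.903, against 0.789 and 0.705 after knockdown. At 28S Cm2744 both applied: it had control scores of 0.595 and 0.647 in set A and 0.751 and 0.701 in set B, against knockdown scores of 0.453, 0.475, 0.376 and 0.396. Its change went from -0.157 in set A to -0.340 in set B, with both groups moving apart. Whether the sets differed in the depth of knockdown, the time of harvest or the library preparation was not tested, since no such record was at hand.

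By the number of listed guides, all 36 sites with several guides fell, with a median change of -0.156. Of 23 with a single guide 20 fell, with a median of -0.188. The share and median were 94.9% and -0.169 for all guided sites, and 80.6% and -0.143 for all sites. By base, 14 of 14 C sites fell with a median of -0.197, 17 of 21 G sites with -0.143, 21 of 28 A sites with -0.129 and 6 of 9 U sites with -0.0650. Among guided sites alone the medians were -0.197 for C, -0.162 for A, -0.151 for G and -0.122 for U, over 14, 22, 18 and 5 sites.

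In all, 24 sites share a listed guide with another site, and some pairs moved by like amounts while others did not. 28S Gm1108 and 28S Am1117 have 4 guides in common and changed by -0.195 and -0.169. 28S Am796 and 28S Am799 share 1 guide and changed by -0.122 and -0.142. 18S Gm393 and 28S Gm2774 share a guide and changed by -0.0821 and -0.426. 18S Um1357 has a guide in common with 28S Am2634 and changed by -0.416 where Am2634 changed by -0.0808. 18S Um586 shares a guide with 28S Cm3412 and 28S Um3415, with -0.461 against -0.155 and -0.122. The pair 28S Am3478 and 28S Cm3480, which have all 4 listed guides in common and lie 2 bases apart, changed by -0.297 and -0.407. The RefSeq gene table names 1 of the 109 guide identifiers, snoRNA:Me18S-G1358c, listed for 18S Um1357 and 18S Gm1359.

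Sites that lie within 3 bases of each other form 11 pairs and may share neighbours in their scores. In the pair of 28S Am1691 and Gm1692, which touch, the changes were -0.256 and -0.0953, with read-end folds of 8.47 and 5.54. 18S Um1357 and Gm1359, 2 bases apart, changed by -0.416 and -0.158 while their read ends rose 9.72-fold and 9.34-fold. 28S Am3420 and Cm3422 changed by -0.0414 and -0.186, and their read ends rose 4.10-fold and 2.80-fold, in the opposite order. The widest contrast was between 18S Gm1300 and Cm1303, with folds of 1.13 and 15.8.

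The largest departures of LacZ replicate 3 from the other controls were at guanosines. Its score was the lowest of the 4 controls at 13 of 21 G sites, 8 of 14 C sites, 11 of 28 A sites and 1 of 9 U sites. It lay more than 0.03 below the mean of the other controls at 7 G sites, 3 A sites and 1 C site. At 28S Gm2666 it had 19.0 ends per 1000 reads where the others had 5.27, 4.45 and 3.71. At 5.8S Gm74 it had 3.87 against 1.17, 1.30 and 1.07. Its part in the results was measured by leaving it out. Then 58 sites again fell and 0 rose, and the change of the mean score was -0.167. At 28S Gm1005 the change of -0.143 became -0.172, and it was called in both cases.

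**Figure D5:**
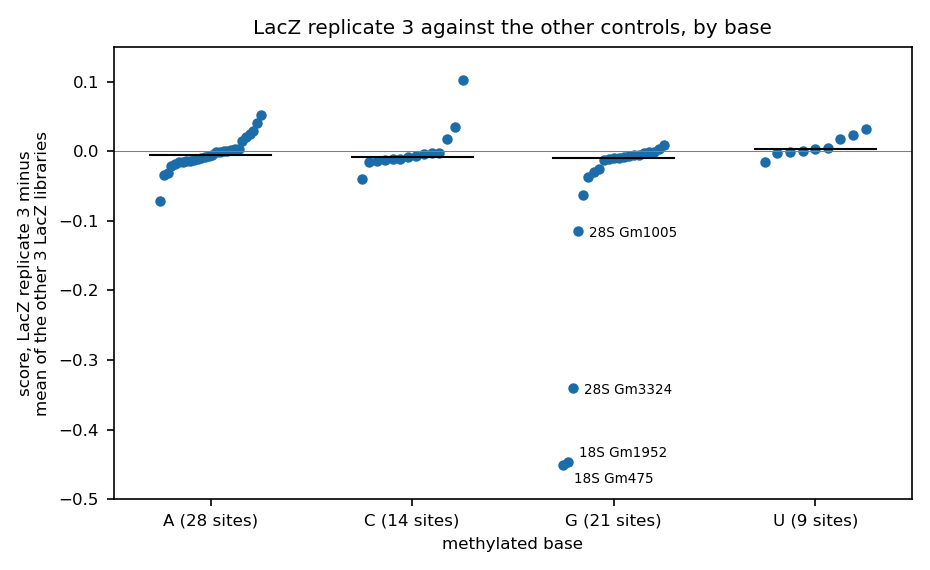
Score of LacZ replicate 3 minus the mean score of the other 3 LacZ libraries (vertical), 1 point per site, arranged by methylated base (horizontal), with the median as a black line. The 4 sites more than 0.1 below the other controls, 18S Gm475, 18S Gm1952, 28S Gm3324 and 28S Gm1005, are all G sites.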

How the data were processed

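Alkaline hydrolysis (16 min, 96 °C) of 150 ng RNA, end repair and a small-RNA kit gave libraries read in 50-base single reads, per the labels' protocols. The submitters' processing notes name Trimmomatic 0.39, Bowtie2 and the build dm6. For the alignment target, the filters and the score formula, the sources used here give nothing. The authors deposited 3 scores per site; the level score scoreC2 was used as deposited and the other 2 were alternatives. The deposited coverage signal is an unscaled number of reads at each site. The authors gave read ends as whole-number signal, with 0.1 standing for none in 11 values of 5′ ends and 1 value of 3′ ends, which were set to 0 here. In all, 1 of 576 scores was below 0. Sites are numbered as in their names; a second name gives another number for 26 sites.

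Each site was tested with limma 3.58.1 in R 4.3.3 (lmFit, eBayes, two-sided, Benjamini-Hochberg over 72 sites, threshold 0.05). The score was tested on its linear scale, and read ends as log2 of the ends plus 1 over coverage, which understates folds of sites with few ends. A 4-cell fit gave the change per library set and its difference. Python 3.11.15 with pandas 2.3.3, numpy 2.4.6 and scipy 1.17.1 made the summaries. The fits were tested on simulated data. The members, lists and rules were chosen with earlier results of these data known. All 72 sites may be named; values in every library go to the 10 largest falls, the sites without a guide, guided sites not called and the 5.8S site. Singling out LacZ replicate 3 by base was chosen after its values were seen. No 2 libraries of a group were alike in their read ends within counting error (chi-square per degree of freedom at least 3.07), so each counted once. Same-numbered libraries deviated together from their group means (correlations over sites 0.574, 0.523, 0.165 and 0.354). Other pairs within a set did as well, at 0.519 and 0.463 in set A. In set B they did so more strongly than the same-numbered ones, at 0.517 and 0.500. The correlations thus follow the library set and do not show pairing by number, and the replicate block served only as an alternative. No sequence was printed, since none of the rRNA or the guides was at hand.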

Additional observations from a re-analysis of the deposited data

Results flagged for a closer look

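In groups of 4 libraries, a library was singled out where its gap to the nearest other was too large a part of the range by Dixon's criterion. This happened for 9 of 146 groups, where chance gives about 1 in 20, and 6 of the 9 concerned LacZ replicate 3. Its mean score was 0.892 against 0.913 to 0.915 in the other controls. Its score was 0.948 at 18S Gm1359 (others 0.981 to 0.988), -0.230 at 18S Gm1952 (0.175 to 0.252), 0.838 at 28S Gm1005 (0.946 to 0.959), 0.911 at 28S Gm2666 (0.968 to 0.979) and 0.964 at 5.8S Gm74 (0.989 to 0.991). LacZ replicate 2 read 0.876 at 18S Gm1300, LacZ replicate 4 read 0.965 at 28S Gm2243 and LacZ replicate 1 read 0.985 at 28S Am3420. No Fib library was singled out at any site. The criterion cannot single one out where the 4 values fall into pairs. Mean Fib scores were lower in set B at 64 sites, and at 18S Um1357 they read 0.682, 0.693, 0.3896 and 0.397. The lack of flags therefore does not show that the Fib libraries were alike. The change differed between the library sets at 40 sites by a test of the difference itself.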

How the results depend on the processing

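The count of 58 lower and 0 higher sites was within 57 to 60 with replicate numbers as a block (60), library sets as a block (60), log2 odds (60), the other deposited scores (58 and 57), a coverage minimum of 1000 (59 of 70 sites), a robust prior (58), exact permutation per site (57) and each library left out (57 to 59), with 0 higher throughout. Apart from 18S Am1806 and 28S Gm3324, which were gained, the replicate block changed no call. The other deposited scores lost 1 and 2 of the calls, in the order given, and gained 1 each. For the mean score the block left -0.161 but an exact p of 0.125; leaving out libraries gave -0.176 to -0.146. Relative to library medians 25 sites were lower and 30 higher, because the median itself shifts by -0.145. The sites whose sign turned there changed as follows: in 18S rRNA Am28 0.0662, Gm393 0.0629, Um[Psi]568 0.13, Am1272 0.144, Gm1300 0.133, Gm1621 0.0829, Am[m62A]1976 0.143, Am[m62A]1977 0.134; in 28S rRNA Am796 0.0226, Am799 0.00257, Gm1005 0.00164, Am1017 0.11, Am1347 0.0298, Cm1679 0.0579, Gm1692 0.0497, Um1859 0.134, Am1897 0.144, Um2204 0.0713, Am2634 0.0642, Am2659 0.0103, Gm2666 0.0431, Um[Psi]2692 0.0800, Am2704 0.0809, Cm2716 0.0901, Am2724 0.0331, Gm3152 0.0777, Cm3298 0.023, Gm3326 0.0991, Um3415 0.0233, Am3420 0.104, Um[Psi]3454 0.094, Gm3455 0.129; in 5.8S rRNA Gm74 0.0231. On log2 odds 28S Am1897 was 0.0228, by one other score it was 0.00993 and 28S Am3006 -0.00658, and by the remaining score 18S Am1272 was 6.14e-05, 28S Um1859 0.00418 and 28S Am1897 0.00432. With libraries left out in turn, 28S Am549 ran from -0.00407 to 0.00696, 18S Am1272 from -0.00784 to 0.00769, 18S Gm1952 from -0.0250 to 0.136, 28S Am1897 from -0.0180 to 0.0193 and 18S Am[m62A]1976 from -0.00688 to 0.00119, none called. From the libraries of a set alone, set A called 60 sites and set B 59. With libraries left out in turn, set A called 54 to 59 and set B 59 to 61, with 0 to 1 higher in set B (1 without LacZ replicate 4). Sites differing between sets then numbered 32 to 45, with 0 to 2 higher (2 without LacZ replicate 4). On log2 odds 12 differed, all 12 lower, and relative to library medians 16 were lower and 24 higher; the cause was not tested. Read-end calls were 57 to 61 with blocks, 0.5 ends added, either end alone or a library left out, and relative to library medians 30 were lower and 15 higher. Coverage limits 18S Am[m62A]1976 and Am[m62A]1977 most.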
